A study of Rattus norvegicus with 6 samples.

Results

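Nuclear receptors and the coactivators that serve metabolism were examined in whole kidneys of rats with and without inherited polycystic kidney disease. The members were 45 genes chosen by symbol, namely lipid and xenobiotic sensors, receptors and coactivators of mitochondrial metabolism, steroid receptors, retinoid and thyroid receptors, clock and orphan receptors, and general coregulators. Of these, 43 had a probe set on the array that names them alone, and 34 were bright enough to be tested among 10645 genes tested. Each gene was read from its brightest probe set, a group of short oligonucleotides that together report 1 transcript region.

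Kidney RNA in 3 samples from heterozygous Han:SPRD Cy/+ rats and 3 samples from wild-type +/+ rats was hybridized to Affymetrix rat genome 230 2.0 arrays, with 1 array per sample. Cy/+ rats carry 1 copy of a missense mutation in Anks6, which encodes SamCystin, and develop slowly progressing cysts. All samples came from males that received no stated treatment, and the comparison asked how expression differs between cystic and normal kidneys. The sample labels give an age of 10 weeks, whereas the study's methods give 5 weeks for the array samples. No source states that the 3 samples of a genotype came from separate rats, so that the p-values rest on the differences among these samples alone, which may be technical. Anks6 was not analysed here.

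Nuclear receptors are transcription factors, many of which are switched on by small lipophilic ligands such as fatty acids, bile acids, oxysterols, retinoids, thyroid hormone and steroids. A large share of them bind DNA as partners of a retinoid X receptor, and they act by exchanging corepressors such as Ncor1 for coactivators such as Ncoa1, Med1 or Ppargc1a. In the kidney, Hnf4a and its partners maintain the transport and metabolic genes of the proximal tubule, and the estrogen-related receptors with their PGC-1 coactivators drive genes of oxidative metabolism.

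Signals are in arbitrary units. They are compared between arrays within 1 probe set, under a scaling between arrays that is not known. Levels of different genes are not compared, although the brightest probe set of a gene was chosen by signal and marker signals were summed. The threshold for testing was a signal of 77.8. Correlations of log2 signals were 0.997 between all pairs of +/+ arrays, ran from 0.982 to 0.990 between Cy/+ arrays and from 0.907 to 0.940 across genotypes. All 18 hybridization control probe sets and all 24 poly-A control probe sets, which read RNA added in the laboratory, were brighter on every Cy/+ array, by a median of 1.83-fold and 3.82-fold. The ratio of 3' to 5' signal, which rises when RNA is degraded or incompletely copied, was 1.51 ± 0.0057 (SD, n = 3) in +/+ and 3.22 ± 0.26 (SD, n = 3) in Cy/+ kidneys for beta-actin, and 1.18 ± 0.036 and 1.85 ± 0.10 for GAPDH. Genes that mark the proximal tubule, which makes up much of the kidney cortex, were well above the threshold in +/+ kidneys, and 18 of 18 tested were lower in Cy/+ kidneys. Their summed signal was 161062 to 168823 in +/+ and 24367 to 61664 in Cy/+ kidneys. Macrophage markers were higher in 11 of 11 tested, fibroblast markers in 7 of 9 and tubular injury markers in 10 of 10. The part of these differences in the values below was not tested, and in whole tissue fewer cells of a type and less RNA per cell cannot be told apart.

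Of the 34 tested members, 10 were higher and 13 lower in Cy/+ kidneys by limma at a Benjamini-Hochberg adjusted p under 0.05, and 11 did not pass. The called share was 67.6%, near the 66.7% of all tested genes called in this comparison. By direction, 37.4% of all tested genes were higher and 29.3% lower. When arrays were brought to a common quantile distribution the split was 6 higher and 13 lower, and when they were centred on their median it was 6 higher and 14 lower. The count higher was also 6 when Cy/+ replicate 2, +/+ replicate 1, +/+ replicate 2 or +/+ replicate 3 was left out. The arrays of the genotypes did not overlap in 23 members, or 67.6%, against 74.6% of all tested genes. A called difference with a fitted value of at least 2-fold was found in 8 members, or 23.5%, against 22.3% of all tested genes. Among these 8, Nr1i2 had a bound of only 1.93-fold, and the arrays of Nr1d1 and Nr1d2 overlapped. The median log2 fold change was -0.07 over the members and 0.09 over all tested genes. As a group the members were therefore close to the background, and the role groups and single genes are described in turn. Of the 10 members called higher, 7 had a fold change under the 1.83-fold median of the hybridization controls.

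**Figure D1:**
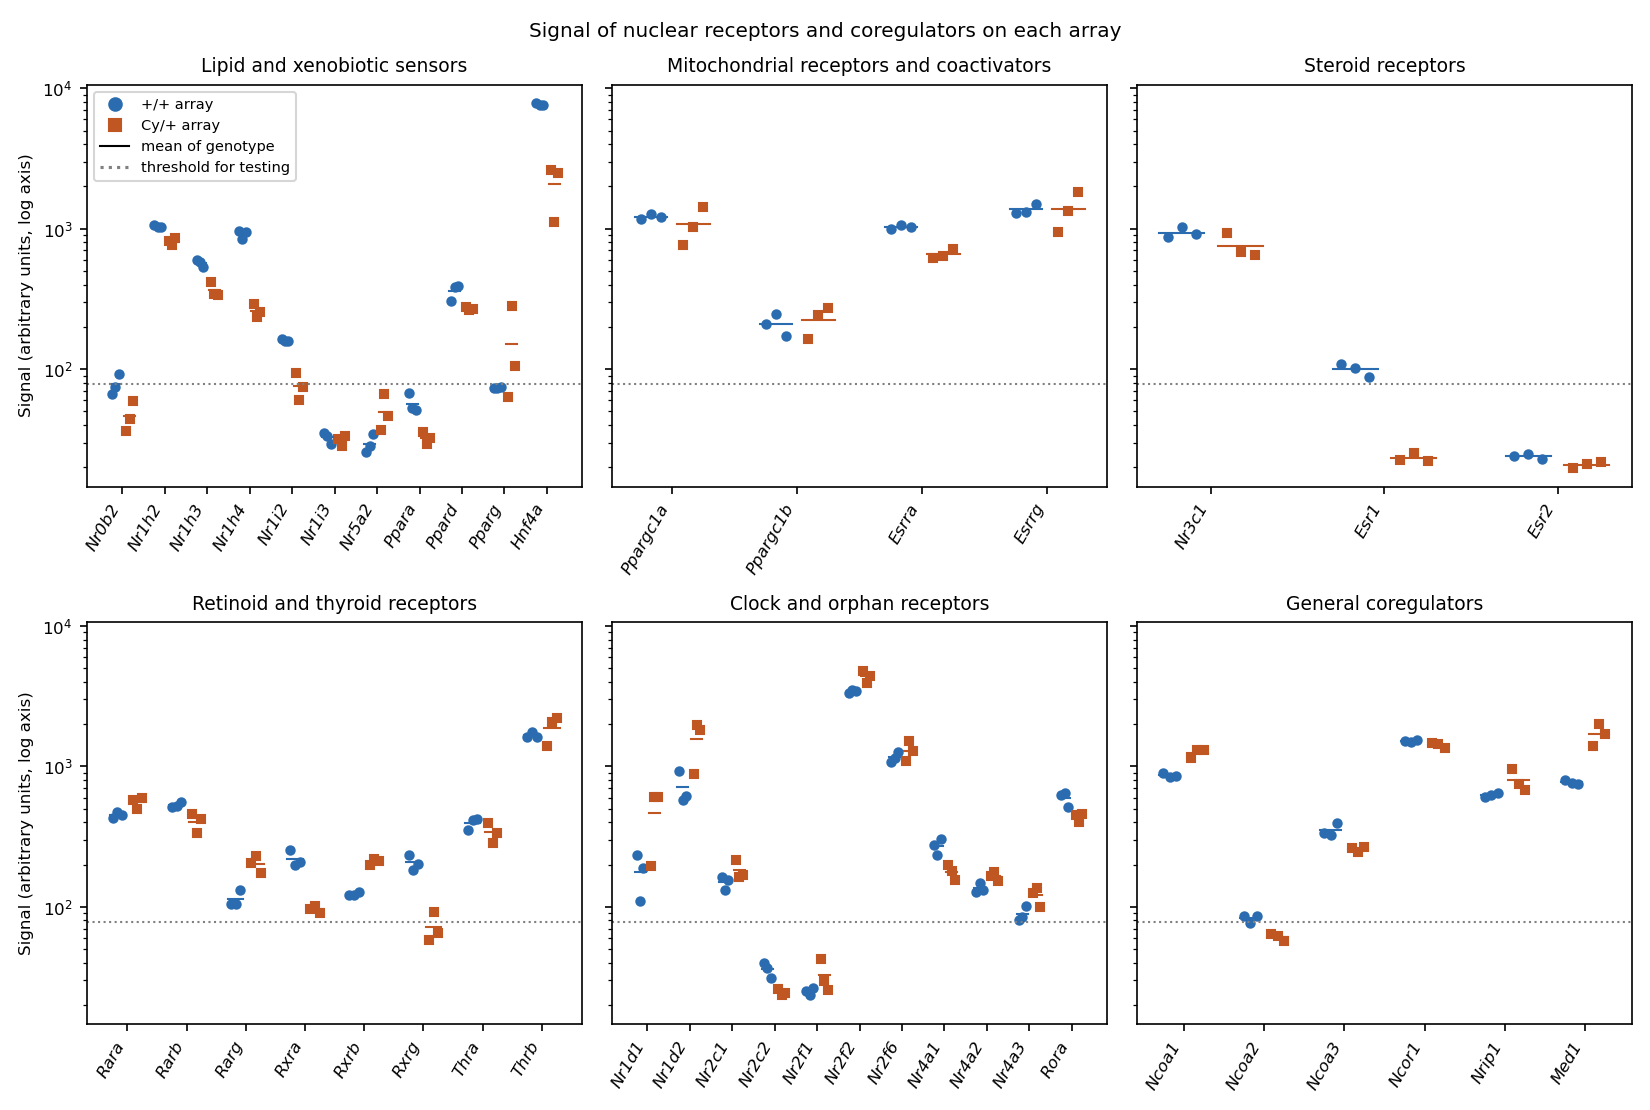
Signal of each member with a probe set of its own on each array, by role group, on a log axis in arbitrary units. Circles are +/+ arrays, squares Cy/+ arrays, short lines genotype means, and the dotted line is the threshold of 77.8, below which a mean log2 signal over the 6 arrays was not tested. Hnf4a, Nr1h4, Rxra and Rxrg lie lower on every Cy/+ array, and Nr1d1 and Nr1d2 are raised on Cy/+ arrays 2 and 3 but not on Cy/+ array 1.

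Lipid and xenobiotic sensors were mostly lower in cystic kidneys. Of 12 listed, 11 had a probe set and 7 were tested, of which 6 were lower, none was higher, and the median log2 fold change was -0.65. Among all tested genes 29.3% were lower and 37.4% higher, with a median of 0.09. These shares stand beside the counts of every role group and list below. Hnf4a, an orphan receptor that keeps hepatocytes and proximal tubule cells differentiated, had signals of 7889, 7641 and 7608 in +/+ kidneys and 2601, 1114 and 2482 in Cy/+ kidneys. All Cy/+ arrays were below all +/+ arrays, with Cy/+ replicate 2 the lowest. The means were 7713 ± 154 and 2066 ± 826 (SD, n = 3 each), a log2 fold change of -2.0 (SE 0.30, 95% confidence interval -2.72 to -1.28, adjusted p = 0.001), or 4.0-fold lower. The other two tested probe sets of Hnf4a were lower still, at -4.07 (adjusted p = 5.4e-05) and -3.60 (adjusted p = 4.4e-05) on the log2 scale.

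The bile acid receptor Nr1h4, also called FXR, had signals of 964, 845 and 953 in +/+ kidneys and 292, 235 and 256 in Cy/+ kidneys. The arrays of the genotypes were widely apart and close together within each. Mean signal was 920.6 ± 65.3 and 261 ± 29.2 (SD, n = 3), a log2 fold change of -1.82 (SE 0.11, adjusted p = 3.17e-05), or 3.54-fold lower. Nr1i2, the pregnane X receptor that senses drugs and other foreign compounds, had signals of 163, 158 and 159 in +/+ kidneys and 93.7, 60.6 and 74.8 in Cy/+ kidneys. Its Cy/+ mean was below the threshold, so that its difference is a bound, at least 1.93-fold lower (fitted log2 fold change -1.09, SE 0.16, adjusted p = 0.000819).

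The oxysterol receptors, which govern cholesterol efflux, were lower by less. Nr1h3 had 597, 584 and 533 in +/+ kidneys and 418, 343 and 338 in Cy/+ kidneys (log2 fold change -0.65, SE 0.11, adjusted p = 0.00175). Nr1h2 ranged from 1021 to 1058 in +/+ and from 763 to 857 in Cy/+ kidneys (-0.35, SE 0.079, adjusted p = 0.00598). For both genes the genotypes did not overlap.

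The peroxisome proliferator-activated receptors, sensors of fatty acids, differed among themselves. Ppard, which is broadly expressed, had 304, 383 and 390.1 in +/+ kidneys and 278, 262 and 267 in Cy/+ kidneys (log2 fold change -0.41, SE 0.12, adjusted p = 0.0182). Its call was lost without +/+ replicate 2 (adjusted p = 0.075) or +/+ replicate 3 (0.0696). Pparg, the receptor that drives fat cell differentiation, had 72.8, 73.2 and 74.0 in +/+ kidneys and 63.2, 282 and 106 in Cy/+ kidneys. The +/+ mean was below the threshold, the Cy/+ arrays spread to both sides of the +/+ arrays, and the difference did not pass (fitted log2 fold change 0.75, SE 0.48, adjusted p = 0.201), although it did without Cy/+ replicate 1 (1.23, adjusted p = 0.0199).

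Ppara, the main activator of fatty acid oxidation, was below the threshold and not tested, with 67.1, 52.4 and 50.8 in +/+ kidneys and 35.6, 29.3 and 32.5 in Cy/+ kidneys. The constitutive androstane receptor Nr1i3, a partner of Nr1i2 in drug metabolism, ranged from 28.4 to 35.3 over all 6 arrays. Nr0b2, a repressor induced by bile acids, ranged from 67.0 to 91.9 in +/+ and from 36.3 to 59.5 in Cy/+ kidneys. Nr5a2, a regulator of bile acid and steroid synthesis, ranged from 25.5 to 34.5 in +/+ and from 36.6 to 66.9 in Cy/+ kidneys. With no filter on dim probe sets, the fitted log2 fold change was -0.80 for Ppara (adjusted p = 0.00149) and -0.76 for Nr0b2 (0.0126). It was 0.73 for Nr5a2 (0.0227) and -0.07 for Nr1i3 (0.607). Both genotype means of each gene were below the threshold, so that no bound on the size of their change is given. Hnf4g had no probe set of its own.

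**Figure D2:**
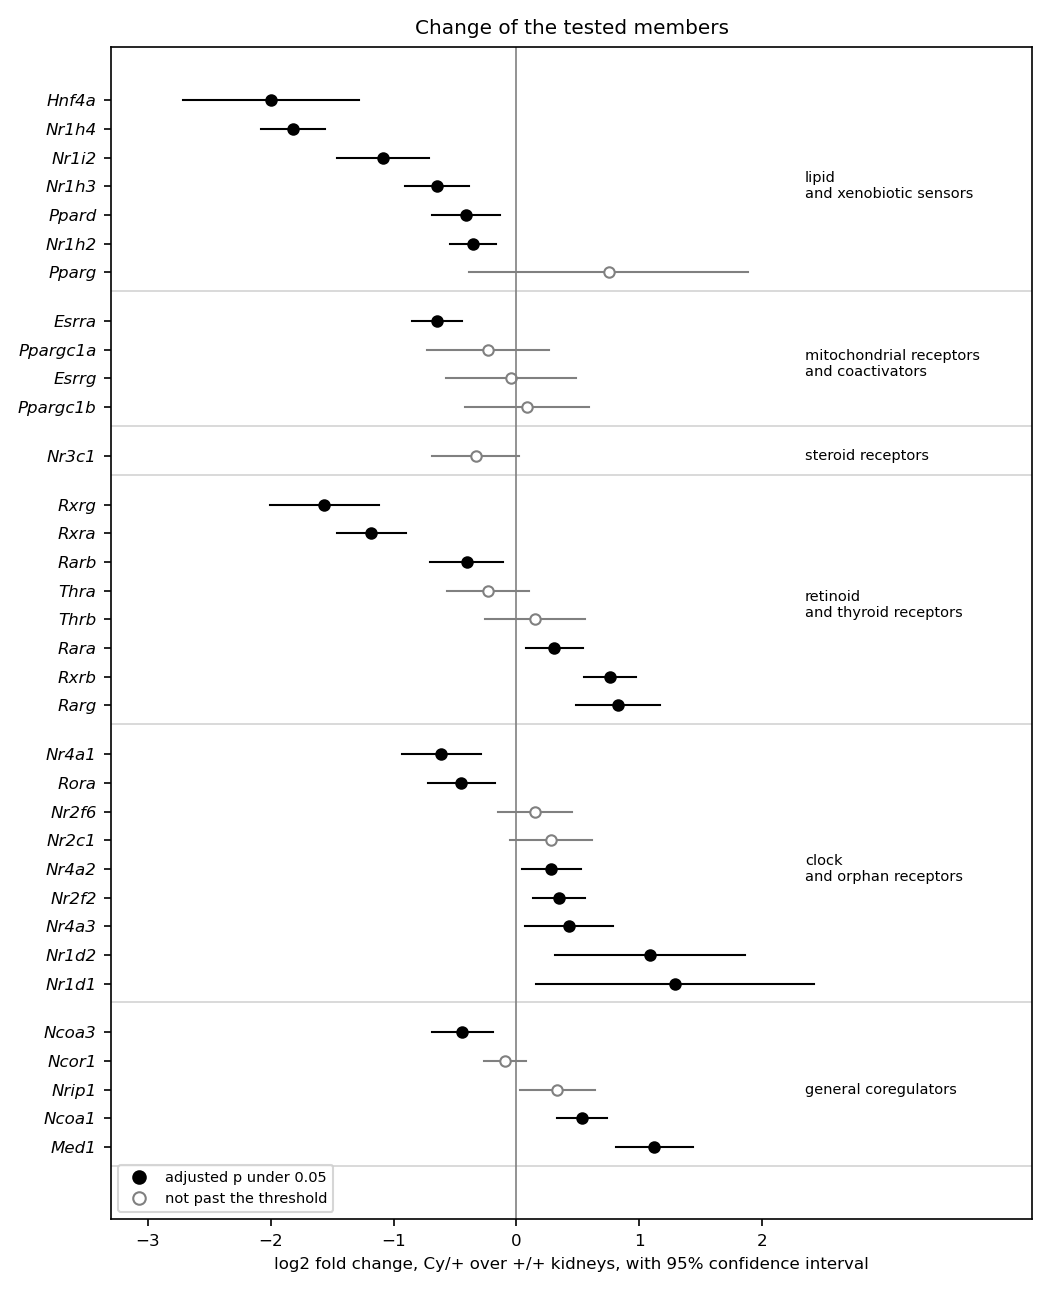
log2 fold change of each tested member, Cy/+ over +/+ kidneys, with 95% confidence intervals from limma, by role group. Filled points passed an adjusted p of 0.05 and open points did not. Of the lipid and xenobiotic sensors, 6 of 7 lie to the left of 0, from Hnf4a at -2.0 to Nr1h2 at -0.35, and the widest intervals belong to Nr1d1 and Pparg.

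Genes that these sensors are known to regulate were counted from the same fit, in which 29.3% of all tested genes were lower and 37.4% higher. Of the HNF4 alpha targets, 10 of 13 tested were lower and 1 was higher, with a median log2 fold change of -2.24. Apoc3, an apolipoprotein of triglyceride-rich particles, had a mean signal of 1456 ± 52.9 in +/+ and 153 ± 42.4 in Cy/+ kidneys (log2 fold change -3.29, adjusted p = 2.99e-05), and Khk, which phosphorylates fructose, fell by 3.07 (adjusted p = 0.000173). Cyp27a1, which oxidizes the cholesterol side chain, was higher by 0.72 (adjusted p = 0.00474). This list shares Cubn and Slc34a1 with the proximal tubule markers, whose 18 tested genes had a median of -2.29.

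PPAR alpha targets, mainly enzymes of fatty acid oxidation, were lower in 15 of 19 tested, with a median of -0.93. Ehhadh, a peroxisomal beta-oxidation enzyme, was lower by -3.28 (adjusted p = 5.74e-05) on the log2 scale, and Acaa2, a mitochondrial thiolase, had -1.66 (adjusted p = 3.09e-05). The only one higher was Angptl4, an inhibitor of lipoprotein lipase, with 69.8, 81.7 and 80.4 in +/+ kidneys and 1178, 525 and 523 in Cy/+ kidneys. Its +/+ mean was just below the threshold, and it was at least 8.59-fold higher (fitted 3.15, adjusted p = 0.000142).

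Targets of the oxysterol receptors LXR moved in both directions, with 4 of 7 tested higher, 2 lower and a median of 0.73. The cholesterol exporters Abca1 and Abcg1 were higher by 1.52 and 1.92 on the log2 scale (adjusted p = 4.23e-05 and 9.25e-05), while Nr1h3 and Nr1h2 were lower. The phospholipid-remodelling enzyme Lpcat3 was lower by -1.25 (adjusted p = 4.92e-05) and the apolipoprotein Apoe had -0.75 (adjusted p = 0.0467), the latter with overlapping arrays. Abca1 and Abcg1 are also abundant in macrophages, whose markers had a summed signal of 7791 to 8880 in +/+ and 14903 to 22519 in Cy/+ kidneys, and the part of these cells was not tested.

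Of 3 tested FXR targets, 1 was lower, the bile acid exporter subunit Slc51a at -3.20 on the log2 scale (adjusted p = 0.000119). All 4 tested targets of PXR and CAR were lower, among them Por, the electron donor of cytochromes P450 (-0.88, adjusted p = 0.000179), and Abcb1a, a drug exporter whose Cy/+ mean was below the threshold (at least 1.71-fold lower, adjusted p = 0.00187).

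Receptors and coactivators of mitochondrial metabolism showed 1 lower member among 4 tested, and a median log2 fold change of -0.14. Esrra, the receptor that activates oxidative phosphorylation genes, had 1002, 1066 and 1029 in +/+ kidneys and 621, 644 and 721 in Cy/+ kidneys. No Cy/+ array reached the lowest +/+ array, and the log2 fold change was -0.64 (SE 0.087, adjusted p = 0.000573). Esrrg, its relative, had 1302, 1308 and 1505 in +/+ kidneys and 944, 1347 and 1839 in Cy/+ kidneys, so that the Cy/+ arrays enclosed the +/+ arrays. The means were 1372 ± 116 and 1377 ± 448 (SD, n = 3), with a log2 fold change of -0.04 (95% confidence interval -0.57 to 0.49, adjusted p = 0.871), an estimate whose sign turned under 4 alternatives.

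Ppargc1a, the coactivator PGC-1 alpha that raises mitochondrial content, had 1175, 1275 and 1212 in +/+ kidneys and 761.5, 1031 and 1428 in Cy/+ kidneys. The Cy/+ arrays again lay on both sides, and the difference did not pass (log2 fold change -0.23, SE 0.21, adjusted p = 0.352). Without Cy/+ replicate 3 it did (-0.46, adjusted p = 0.0307). Both other probe sets of Ppargc1a were lower, by -1.24 (adjusted p = 0.0143) and -1.04 (adjusted p = 0.00181), with no overlap between the genotypes. The probe sets of this gene thus did not give 1 answer, and with its probe sets averaged it was called lower (-0.84, adjusted p = 0.0184). Ppargc1b, its paralog, ranged from 173 to 249 in +/+ and from 164 to 271 in Cy/+ kidneys (0.09, adjusted p = 0.735, with a sign that turned to -0.03 under quantile scaling). Of the genes these factors regulate, 10 of 15 tested were lower and 1 was higher, with a median of -0.47. The complex I subunit Ndufs1 had -1.25 (adjusted p = 0.000227), the malate dehydrogenase Mdh2 had -0.82 (adjusted p = 0.000161), and Nrf1, a transcription factor for mitochondrial genes, was higher by 0.88 (adjusted p = 0.000207).

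Steroid receptors were mostly dim. Nr3c1, the glucocorticoid receptor, had 869, 1033 and 915 in +/+ kidneys and 927, 685.5 and 648 in Cy/+ kidneys. Cy/+ replicate 1 lay among the +/+ arrays and the other two Cy/+ arrays below them, and the difference did not pass (log2 fold change -0.33, SE 0.15, adjusted p = 0.0853). It passed without Cy/+ replicate 1 (-0.49, adjusted p = 0.00332) and with arrays centred on their median (-0.40, adjusted p = 0.0443). A dimmer probe set of Nr3c1 that was not tested read 131, 131 and 94.6 in +/+ kidneys and 45.4, 46.5 and 53.8 in Cy/+ kidneys.

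Esr1, the estrogen receptor alpha, had 109, 102 and 87.8 in +/+ kidneys and 22.6, 25.4 and 22.1 in Cy/+ kidneys. All +/+ arrays were above the threshold for testing and all Cy/+ arrays were far below it, so that its mean over the 6 arrays was under the threshold and Esr1 was left out of the count above. Against the threshold it was at least 1.28-fold lower, and with no filter on dim probe sets the fitted log2 fold change was -2.09 (SE 0.11, adjusted p = 1.44e-05). Esr2, the estrogen receptor beta, ranged from 19.7 to 24.9 over the 6 arrays, with a fitted -0.20 under no filter (adjusted p = 0.0463). Of 11 tested glucocorticoid receptor targets, 2 were higher and 4 lower. Fkbp5, a chaperone that restrains the receptor, was higher by 1.25 (adjusted p = 0.000239), as was Per1 by 0.51 (adjusted p = 0.0269), whereas Errfi1, a brake on EGF receptor signalling, and Sgk1, a kinase that promotes sodium reabsorption, were lower by -1.62 and -1.31 (adjusted p = 0.000454 and 0.00087).

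Retinoid and thyroid receptors split evenly, with 3 of 8 higher, 3 lower and a median of -0.04. The retinoid X receptors, the shared partners of the sensors above, went in different directions. Rxra had 252, 197 and 207 in +/+ kidneys and 96.1, 102 and 90.7 in Cy/+ kidneys, and Rxrg had 236, 184 and 203.5 in +/+ kidneys and 57.9, 91.5 and 64.7 in Cy/+ kidneys. In both, each Cy/+ array was less bright than each +/+ array. Rxra had a log2 fold change of -1.18 (SE 0.12, adjusted p = 0.000171), or 2.27-fold lower, and Rxrg, with a Cy/+ mean below the threshold, was at least 2.52-fold lower (fitted -1.56, SE 0.19, adjusted p = 0.000329). Rxrb was the opposite, with 122, 121 and 128 in +/+ kidneys and 198, 220 and 213 in Cy/+ kidneys (0.76, SE 0.09, adjusted p = 0.000307), or 1.70-fold higher, under the 1.83-fold median of the hybridization controls. Its direction and call held under every alternative it was run in, quantile scaling included.

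Among the retinoic acid receptors, which switch on genes in response to all-trans retinoic acid, Rarg had 105, 104 and 132 in +/+ kidneys and 204, 228 and 173 in Cy/+ kidneys. It was higher with no overlap (log2 fold change 0.83, SE 0.15, adjusted p = 0.002). Rara ranged from 429 to 472 in +/+ and from 501 to 597 in Cy/+ kidneys (0.31, adjusted p = 0.0265), a call lost under quantile scaling (adjusted p = 0.07), under median centring (0.0595), with the replicate number as a block (0.0661) and without Cy/+ replicate 3 (0.0767), +/+ replicate 1 (0.0997), +/+ replicate 2 (0.0545) or +/+ replicate 3 (0.0704). Rarb, itself a target of retinoic acid, ranged from 515 to 558 in +/+ and from 337 to 458 in Cy/+ kidneys (-0.40, adjusted p = 0.0248), a call lost without +/+ replicate 1 (0.06), +/+ replicate 2 (0.0641) or +/+ replicate 3 (0.0836) and under the methods' t-test, run on each probe set alone (0.0646).

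The promoter of Rarg is shown because it is 1 of 3 windows of called members that hold a searched motif. The window runs from 250 bases before to 50 after an annotated start, in RefSeq's GRCr8 annotation at chr7:135268840-135269139 on the minus strand, and is 1 of 2 windows of the gene. Capitals mark TGACCT, the receptor half-site AGGTCA read on the opposite strand, which begins 225 bases before the start.
Rarg: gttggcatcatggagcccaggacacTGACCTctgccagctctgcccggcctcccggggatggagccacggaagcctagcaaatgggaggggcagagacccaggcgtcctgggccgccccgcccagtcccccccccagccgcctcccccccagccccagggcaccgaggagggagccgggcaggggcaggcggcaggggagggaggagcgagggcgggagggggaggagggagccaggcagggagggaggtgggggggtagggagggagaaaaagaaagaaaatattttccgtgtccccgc
AGGTCA was found on either strand in 16.2% of 33469 such windows of all genes and in 4 of 46 windows of the members, those of Rarg, Nr1d2, Nr5a2 and Esrrg. Its occurrence is a property of the letters and no evidence of binding.

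Of 11 tested genes listed as retinoic acid targets, 2 were higher and 2 lower, with a median of 0.33. The list counts the member Nrip1 and also Aldh1a2, an enzyme that makes retinoic acid. Aldh1a2 had 164, 129.5 and 132 in +/+ kidneys and 953, 905 and 988.5 in Cy/+ kidneys (log2 fold change 2.75, adjusted p = 1.69e-05). Tgm2, a transglutaminase, was higher by 1.03 (adjusted p = 0.00113). Those lower were Rarb, given above as a member, and Rarres1, a retinoid-responsive gene (-1.46, adjusted p = 0.000538).

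The thyroid hormone receptors did not pass by their brightest probe sets. Thrb had 1631, 1768 and 1613 in +/+ kidneys and 1390, 2075 and 2200 in Cy/+ kidneys (log2 fold change 0.15, SE 0.17, adjusted p = 0.463). Cy/+ replicate 1 was the lowest array and Cy/+ replicates 2 and 3 were the highest, and without Cy/+ replicate 1 the value was 0.36 (adjusted p = 0.00546). The other tested probe sets of Thrb were lower, by -1.22 (adjusted p = 0.000463) and -1.02 (adjusted p = 0.0027).

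Thra ranged from 354 to 420 in +/+ and from 284 to 396 in Cy/+ kidneys (-0.23, adjusted p = 0.186), and passed without Cy/+ replicate 1 (-0.35, adjusted p = 0.0359). Its other tested probe set was higher by 0.93 (adjusted p = 0.000548). In the GRCr8 annotation Thra, at chr10:84198141-84225659 on the plus strand, overlaps Nr1d1, at chr10:84224599-84231812 on the minus strand, by 1061 bases. No source used here states which part of the gene each probe set reads. Genes listed as thyroid hormone targets were lower in 6 of 8 tested and higher in 1, with a median of -1.08. Slc16a10 (-1.63) and Crym (-2.09) are counted among those lower. Whether each listed gene responds to the hormone in kidney was not tested. Dio1, the deiodinase that makes active hormone, had 642, 643 and 556 in +/+ kidneys and 66.2, 45.9 and 65.1 in Cy/+ kidneys, below the threshold, and was at least 7.87-fold lower (fitted -3.39, adjusted p = 2.08e-05). Me1, malic enzyme, was lower by -2.26 (adjusted p = 2.61e-05), and Bcl3, a cofactor of NF-kappaB, was higher by 2.20 (adjusted p = 0.000404).

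Clock and orphan receptors were higher in 5 and lower in 2 of 9 tested, with a median log2 fold change of 0.29. Nr1d1 and Nr1d2, the REV-ERB repressors that silence Bmal1 at set times of day, were not uniform within the cystic group. Nr1d1 had 234, 111 and 189.6 in +/+ kidneys and 197, 606 and 607 in Cy/+ kidneys, and Nr1d2 had 934, 579.7 and 611 in +/+ kidneys and 884, 1975 and 1815 in Cy/+ kidneys. In both genes Cy/+ replicate 1 lay within the +/+ range while Cy/+ replicates 2 and 3 were above it. Nr1d1 had a log2 fold change of 1.29 (SE 0.48, adjusted p = 0.0458) and Nr1d2 of 1.09 (SE 0.33, adjusted p = 0.0215), with overlapping arrays.

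The call of Nr1d1 was lost without Cy/+ replicate 2 (adjusted p = 0.124), Cy/+ replicate 3 (0.136), +/+ replicate 1 (0.0536), +/+ replicate 2 (0.142) or +/+ replicate 3 (0.0902), under quantile scaling (0.0629) and median centring (0.054), under the methods' t-test (0.144) and with the replicate block (0.0675). Without Cy/+ replicate 1 it was 1.83 (adjusted p = 0.00124). The call of Nr1d2 was lost when Cy/+ replicate 2 (0.0607) or 3 (0.0696) or +/+ replicate 2 (0.0723) or 3 (0.0741) was left out, under the methods' t-test (0.0919) and with its probe sets averaged (0.69, adjusted p = 0.0754). A further tested probe set of Nr1d2 had 0.30 (adjusted p = 0.336). A dimmer probe set of Nr1d2 that was not tested read 153.8, 91.6 and 94.8 in +/+ kidneys and 32.9, 64.75 and 75.25 in Cy/+ kidneys. It lay the opposite way, with no overlap.

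Promoter windows of both genes are shown because each held a searched motif. For Nr1d1 the second of 2 windows, chr10:84229405-84229704 on the minus strand of GRCr8, has in capitals CACGTG, the E-box that the clock activators bind, beginning 191 bases before the start. For Nr1d2 the window is chr15:9954784-9955083 on the plus strand, with the half-site AGGTCA in capitals beginning 187 bases before the start.
Nr1d1: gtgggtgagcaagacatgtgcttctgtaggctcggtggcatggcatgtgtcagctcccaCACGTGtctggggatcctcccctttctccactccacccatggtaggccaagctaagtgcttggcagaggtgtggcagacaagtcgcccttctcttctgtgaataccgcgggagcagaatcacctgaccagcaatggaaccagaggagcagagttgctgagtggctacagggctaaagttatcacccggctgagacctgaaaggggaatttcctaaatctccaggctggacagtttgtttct
Nr1d2: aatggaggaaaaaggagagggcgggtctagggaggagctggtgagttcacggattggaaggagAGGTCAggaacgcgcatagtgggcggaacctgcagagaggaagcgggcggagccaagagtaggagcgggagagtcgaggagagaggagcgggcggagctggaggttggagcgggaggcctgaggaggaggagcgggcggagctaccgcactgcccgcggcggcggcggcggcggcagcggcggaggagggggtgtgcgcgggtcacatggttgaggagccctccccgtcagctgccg
CACGTG was present in 6.42% of all 33469 windows and in 3 of 46 windows of the members, those of Nr1d1, Nr0b2 and Esr2. TGACGTCA, the cyclic AMP element, was in 1.83% of all windows and in those of Ppargc1a and Nr6a1. TCAAGGTCA, a longer site that contains AGGTCA, and CAAAGTCCA, an HNF4 site, were in 0.433% and 0.391% of all windows and in none of the members' windows. All motifs were searched on both strands, and a missing match says only that the letters are not in these windows.

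The partners of these receptors in the circadian clock were read to see whether the same arrays stood apart. Bmal1, the clock activator that the REV-ERB repressors silence, had 467, 649 and 563 in +/+ kidneys and 221, 91.3 and 85.8 in Cy/+ kidneys (log2 fold change -2.21, adjusted p = 0.00128). Per3, a period gene, had 185.5, 127 and 143 in +/+ kidneys and 234.5, 775 and 630.3 in Cy/+ kidneys (1.70, adjusted p = 0.00983). In each, Cy/+ replicate 1 was the Cy/+ array nearest to the +/+ arrays.

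Dbp, a clock output factor, had 241, 169 and 179 in +/+ kidneys and 120.5, 705 and 636 in Cy/+ kidneys and did not pass (0.96, adjusted p = 0.213). Nfil3, a repressor that opposes Dbp, had 337, 406 and 379 in +/+ kidneys and 846, 264 and 277 in Cy/+ kidneys and did not pass either (0.08, adjusted p = 0.868). For both genes Cy/+ replicate 1 lay on one side of the +/+ arrays and Cy/+ replicates 2 and 3 on the other. Such a split was not confined to clock genes. Slc2a2, a listed HNF4 alpha target, had 1820, 1557 and 1591 in +/+ kidneys and 3781, 1198 and 1546 in Cy/+ kidneys. Scnn1g, a collecting duct marker, had 442, 475 and 473 in +/+ kidneys and 309, 838 and 646 in Cy/+ kidneys. The share of all tested genes with this split was not computed. Among all 16 tested partners 6 were higher and 6 lower, with a median of 0.04. By the same fit the casein kinase Csnk1d and the repressor Bhlhe41 were higher by 0.67 and 0.86 (adjusted p = 0.0006 and 0.000412), with no such split, and Bhlhe40 was lower by -0.52 (adjusted p = 0.00592). The time of day at which kidneys were taken is not given in the sources used here, and its part in these differences was not tested. Per3, Dbp, Nfil3, Slc2a2 and Scnn1g were singled out after their values were seen.

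**Figure D3:**
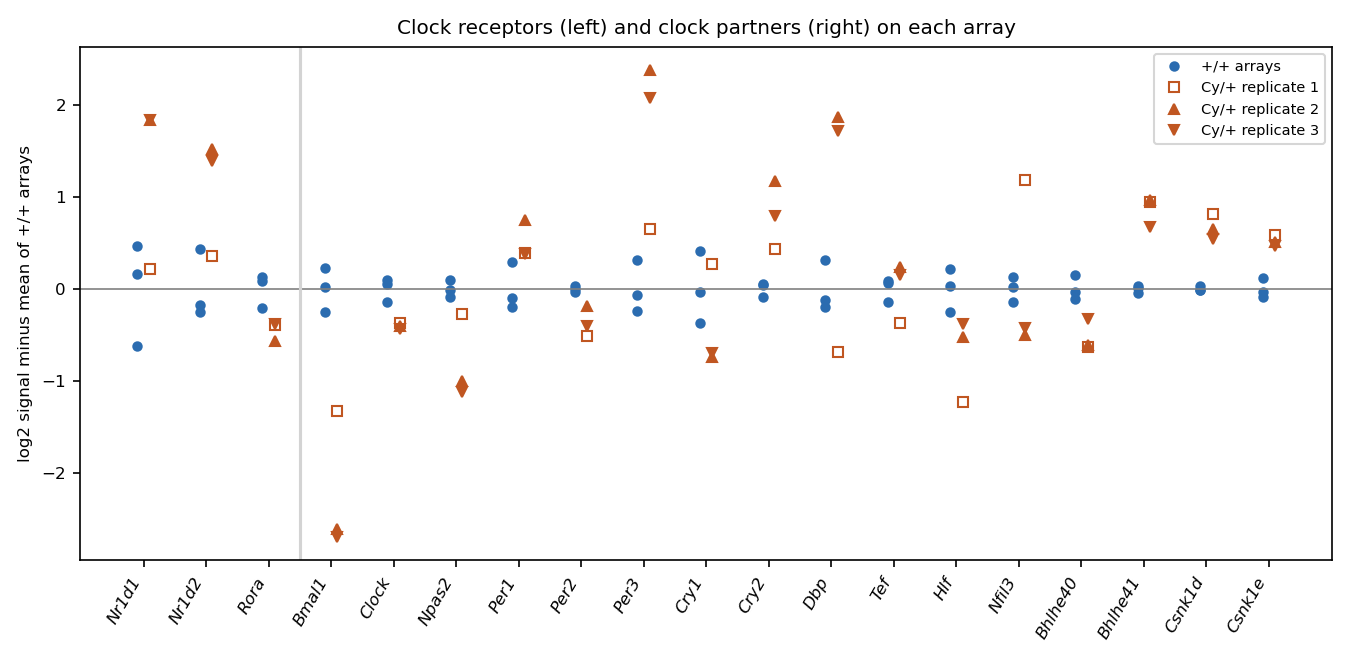
log2 signal of clock receptors (left of the line) and clock partners (right) on each array, each gene set to 0 at the mean of the +/+ arrays. Circles are +/+ arrays, open squares Cy/+ replicate 1, and triangles Cy/+ replicates 2 and 3. Cy/+ replicates 2 and 3 lie together and away from Cy/+ replicate 1 for Nr1d1, Nr1d2, Bmal1, Per3, Dbp and Nfil3, whereas all Cy/+ arrays lie together for Csnk1d, Csnk1e and Clock.

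Rora, the activator that competes with the REV-ERB repressors for the same DNA sites, had 627, 644.5 and 513 in +/+ kidneys and 450.5, 399 and 455 in Cy/+ kidneys. It was lower (log2 fold change -0.45, SE 0.12, adjusted p = 0.0114), its second tested probe set was too (at least 1.23-fold with a Cy/+ mean below the threshold, adjusted p = 0.0072), and no Cy/+ array stood apart. The call was lost without +/+ replicate 1 (0.0501) or +/+ replicate 2 (0.0513).

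Nr2f2, also called COUP-TFII, which shapes veins and mesenchyme, had 3354, 3489 and 3454 in +/+ kidneys and 4782, 3913 and 4421 in Cy/+ kidneys. It was higher with no overlap (0.34, SE 0.09, adjusted p = 0.0119), and its other tested probe set gave 0.71 (adjusted p = 0.000191). Nr2f6, its relative, ranged from 1082 to 1257 in +/+ and from 1099 to 1506 in Cy/+ kidneys (0.15, adjusted p = 0.325), while another of its probe sets was lower by -1.48 (adjusted p = 6.1e-05). That probe set and the brightest are of a type shared with similar transcripts. The orphan receptor Nr2c1 ranged from 131 to 163 in +/+ and from 164 to 215 in Cy/+ kidneys (0.29, adjusted p = 0.112).

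The NR4A receptors, immediate early genes, were not alike. Nr4a1 ranged from 233 to 303 in +/+ and from 155 to 197.5 in Cy/+ kidneys (-0.61, SE 0.14, adjusted p = 0.00617). Nr4a2 ranged from 128 to 147 and from 154 to 176 (0.29, adjusted p = 0.0403), and Nr4a3, with overlapping arrays, from 80.8 to 102 and from 99.3 to 136 (0.43, adjusted p = 0.0381). Both higher calls were lost under quantile scaling (adjusted p = 0.121 and 0.0529), median centring (0.107 and 0.0672), array weights (0.0826 and 0.0524) and the replicate block (0.0637 and 0.0789), that of Nr4a2 also with no filter (0.0535) and that of Nr4a3 under the methods' t-test (0.0928). Leaving out Cy/+ replicate 1 (0.0583) or 2 (0.103) or +/+ replicate 1 (0.138) or 3 (0.11) ended the call of Nr4a2. For Nr4a3 this held for Cy/+ replicate 1 (0.0751) or 2 (0.105) and for +/+ replicate 1 (0.123) or 2 (0.11). The orphan receptors Nr2c2, from 23.4 to 40, and Nr2f1, from 23.6 to 42.4 over the 6 arrays, were below the threshold, and Nr6a1 had no probe set of its own. With no filter on dim probe sets, Nr2c2 had a fitted -0.53 (adjusted p = 0.00374) and Nr2f1 0.34 (0.129).

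General coregulators were higher in 2 and lower in 1 of 5 tested, with a median of 0.34. Med1, the Mediator subunit that contacts liganded receptors, had 797, 764.5 and 754 in +/+ kidneys and 1394, 1999 and 1701 in Cy/+ kidneys. The Cy/+ arrays were all above the +/+ arrays, with a log2 fold change of 1.12 (SE 0.13, adjusted p = 0.000312), or 2.18-fold. A second probe set gave 1.14 (adjusted p = 0.00017), but a much dimmer one, with 167.5, 123.5 and 125 in +/+ kidneys and 42.8, 68.7 and 58.3 in Cy/+ kidneys, was lower (at least 1.76-fold with a Cy/+ mean below the threshold, fitted -1.31, adjusted p = 0.00107). Med1 was the only member with probe sets called in opposite directions, and its call was lost when the probe sets were averaged (0.32, adjusted p = 0.0863).

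Ncoa1, a steroid receptor coactivator, had 898, 843.5 and 851 in +/+ kidneys and 1144, 1303 and 1318 in Cy/+ kidneys (log2 fold change 0.54, SE 0.087, adjusted p = 0.00131). Ncoa3, of the same family, had 335, 325 and 395 in +/+ kidneys and 264, 245 and 266 in Cy/+ kidneys (-0.44, SE 0.11, adjusted p = 0.008), although its other tested probe set gave 0.02 (adjusted p = 0.855). By their brightest probe sets these relatives had no overlap between the genotypes, but the arrays of that other probe set of Ncoa3 overlapped and its call was lost when its probe sets were averaged (-0.21, adjusted p = 0.0577). Ncoa2, the third, was below the threshold, with 76.7 to 86.6 in +/+ and 57.5 to 63.7 in Cy/+ kidneys. With no filter on dim probe sets it had a fitted -0.44 (adjusted p = 0.00676).

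The corepressor Ncor1 had 1507, 1502 and 1549 in +/+ kidneys and 1463, 1452 and 1362 in Cy/+ kidneys, and with a log2 fold change of -0.09 (95% confidence interval -0.26 to 0.08, adjusted p = 0.281) did not pass. Nrip1, a corepressor of metabolic genes, ranged from 609 to 643 in +/+ and from 684 to 953 in Cy/+ kidneys (0.34, adjusted p = 0.0515), and passed without Cy/+ replicate 3 (0.44, adjusted p = 0.021). Of 16 further coregulators tested, 10 were higher and 3 lower, with a median of 0.36. The PGC-1 relative Pprc1 and the corepressor subunit Tbl1x were higher by 1.28 and 0.85 (adjusted p = 0.000375 and 0.000291), and Ncoa7 and the prohibitin Phb2 were lower by -0.56 and -0.46 (adjusted p = 0.000392 and 0.00152). Among 3 further receptors tested 1 was lower, the vitamin D receptor Vdr, with 230, 177 and 175 in +/+ kidneys and 42.2, 49.5 and 49.6 in Cy/+ kidneys (Cy/+ mean below the threshold, at least 2.47-fold lower, fitted -2.04, adjusted p = 4.28e-05).

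**Figure D4:**
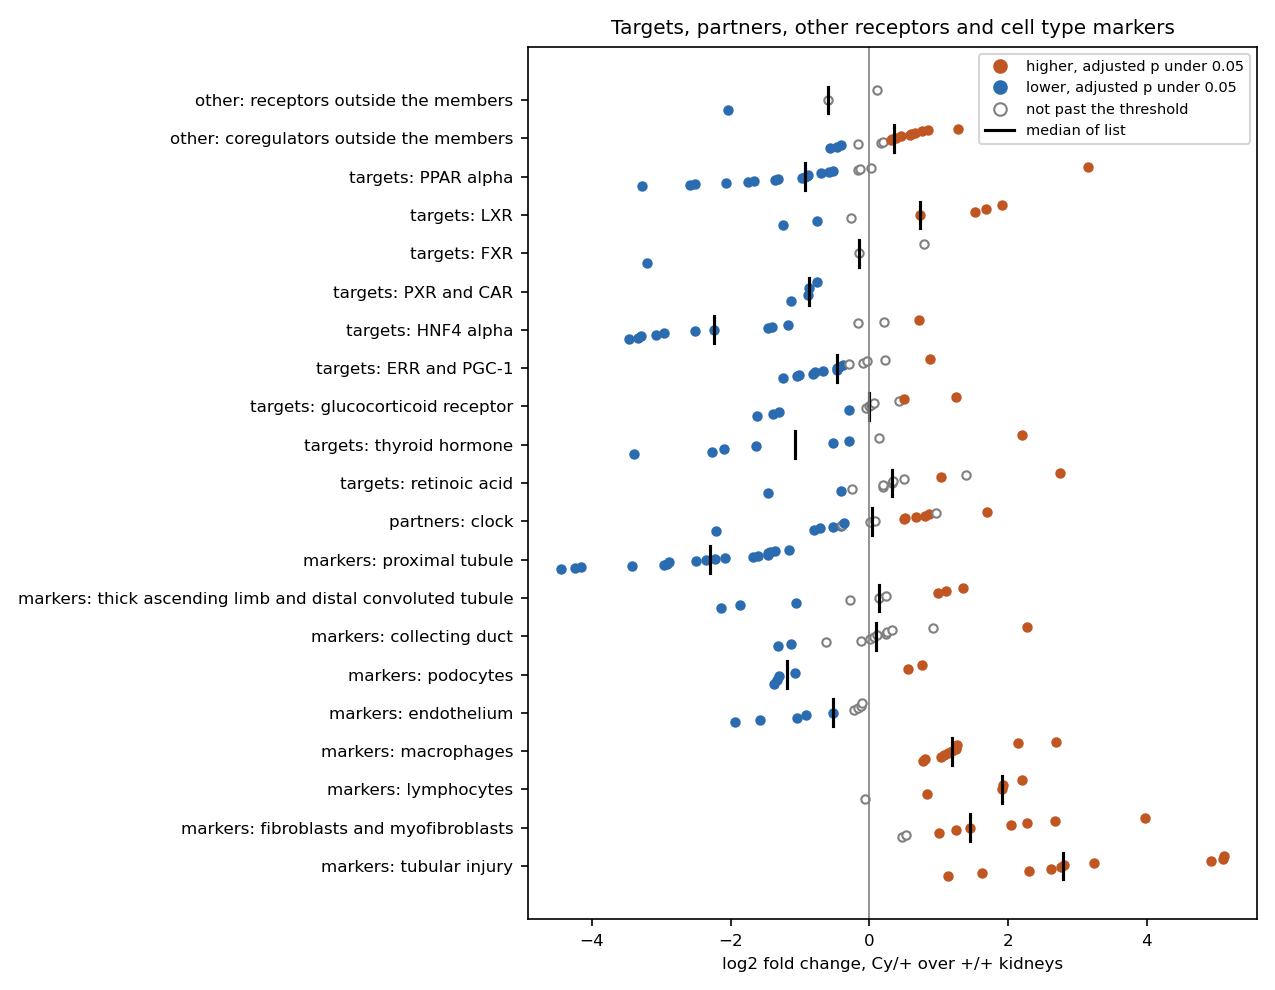
Fitted log2 fold change, Cy/+ over +/+ kidneys, of every tested gene of the lists of other receptors and coregulators, receptor targets, clock partners and cell type markers. Filled points passed an adjusted p of 0.05, open points did not, and vertical bars are list medians. HNF4 alpha targets (median -2.24) and proximal tubule markers (median -2.29) lie far to the left, and tubular injury (2.79), fibroblast (1.46) and macrophage markers (1.19) to the right.

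Marker lists of other cell types were counted against the 66.7% of all tested genes called. The marker list for thick ascending limb plus distal convoluted tubule was higher in 3 and lower in 3 of 9 tested, collecting duct markers higher in 1 and lower in 2 of 12, podocyte markers higher in 2 and lower in 4 of 6, and endothelial markers lower in 5 of 9. Of 5 tested lymphocyte markers 4 were higher. By the smallest adjusted p in each direction, the proximal tubule was represented by the phosphate transporter Slc34a3 (log2 fold change -4.25, adjusted p = 4.23e-05) and the water channel Aqp1 (-1.36). In the distal segments Calb1 and Egf were lower (-1.87 and -2.13) and Ptger3 and Cldn19 higher (1.11 and 1.34), and in the collecting duct Slc26a4 was lower (-1.13) and Aqp4 higher (2.28). Kcne1, counted in the collecting duct list with a Cy/+ mean below the threshold, was at least 1.75-fold lower. Whether Kcne1 marks this segment in these kidneys was not tested. Podocyte genes included Podxl and Nphs1 at -1.08 and -1.30 and Synpo and Cdkn1c at 0.56 and 0.76, and endothelial genes Vwf and Emcn at -1.94 and -1.58. Among the lists that were higher, Cd14 and Lyz2 of macrophages had 2.15 and 1.04, Col1a1 and Vim of fibroblasts 3.98 and 2.68, and the injury genes Clu and Lcn2 3.24 and 5.11. Cd3e and Cd3g of T cells, with +/+ means below the threshold, were at least 3.11-fold and 3.30-fold higher.

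Signals also varied more among the Cy/+ arrays than among the +/+ arrays, for the members much as for all tested genes. Whether this spread is biological or technical was not tested. The SD of log2 signal was larger in Cy/+ than in +/+ kidneys for 28 of 34 tested members, or 82.4%, against 78.2% of all tested genes, and its median was 0.22 against 0.11 over the members and 0.16 against 0.083 over all tested genes. The Cy/+ array farthest from the +/+ mean was replicate 1 for 7 members, replicate 2 for 17 and replicate 3 for 10, against 35.9%, 46.8% and 17.3% of all tested genes.

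The choice of probe set mattered for some of these genes. The members had 81 probe sets, of which 52 were tested, 14 higher and 22 lower. Among all 18625 tested probe sets 12491 passed, a similar share. Of 13 members with more than 1 tested probe set, 7 had probe sets of both signs. The share of all genes with probe sets of both signs was not computed. For Thra, Thrb, Nr2f6 and Ppargc1a the brightest probe set did not pass while at least 1 other did, and in Thra, Thrb and Nr2f6 that other pointed the opposite way.

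**Figure D5:**
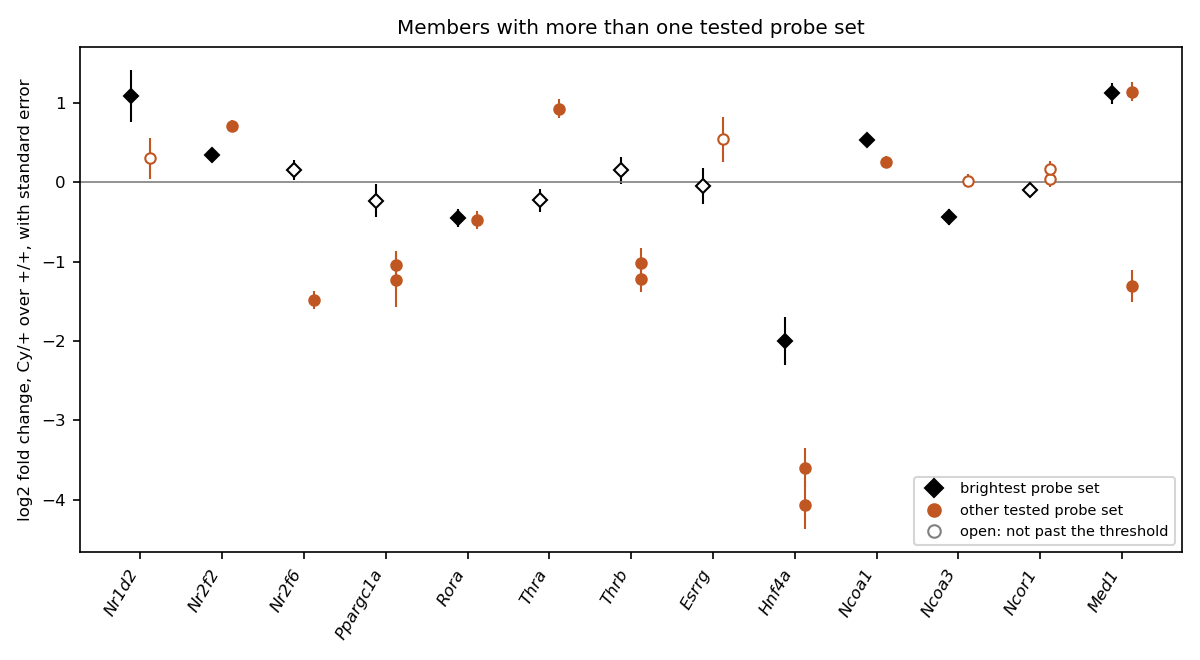
log2 fold change with standard error for each tested probe set of the 13 members that have more than 1. Diamonds are the brightest probe set, which stands for the gene elsewhere, circles the others, and open symbols did not pass an adjusted p of 0.05. All 3 probe sets of Hnf4a lie between -2.0 and -4.07, whereas those of Med1 lie at 1.12, 1.14 and -1.31.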

How the data were processed

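Total RNA (5 µg) from whole kidney was labelled and hybridized by the authors to Affymetrix rat genome 230 2.0 arrays. The deposited values are linear intensities, 1 for each probe set on each array, named as MAS5 in the submitters' notes. Scaling between arrays and detection calls are not given in the sources used here. The smallest signal was 10.7 and the largest 32240, and the number of arrays, 3 per genotype, limits the precision.

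Intensities were converted to log2 with no further normalization. Of 31099 probe sets, 20832 had 1 gene symbol, 436 several and 9831 none, and 20764 symbols were updated through Entrez identifiers with RefSeq's GRCr8 table. Probe sets with a mean log2 signal at or above the 40th percentile (log2 6.28) were tested, 18625 in all, of which 12491 passed. limma 3.58.1 in R 4.3.3 compared Cy/+ with +/+ over all 6 arrays (lmFit, then eBayes with its trend on intensity), with Benjamini-Hochberg adjustment over all tested probe sets and a threshold of 0.05. The script was tested on simulated data. Confidence intervals are not adjusted for the number of genes. Where a genotype had a mean log2 signal below the threshold, the difference of a gene named as called is given as a bound, the brighter mean over the dim mean with each dim array set to the higher of the threshold and its own signal. Fitted values of such genes are no bound, and list medians and figures use fitted values.

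The members and lists were chosen with earlier results of these data known. Every member was named. All signals were given for members called at a fitted 2-fold or more without overlap and for the brightest of each role group. For other lists 2 genes per direction were named. Genes named or given array by array beyond that were chosen after their values were seen. For the members 18 alternatives were run: scaling, floor, pseudocount, filter, variance model, the methods' t-test, a replicate block, probe set rules, and leaving out each array. The replicate numbers were not treated as pairs in the main fit, and whether they pair the samples is not known. Promoter windows came from RefSeq (33469 windows of 27457 genes, 46 of 37 members).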

Additional observations from a re-analysis of the deposited data

Results flagged for a closer look

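A total of 3 probe sets of members that were too dim for the comparison had no +/+ array as bright as any of the Cy/+ arrays. The mean Cy/+ signal was 130 for a second probe set of Nr4a3, with 170.5, 144 and 75.1 in Cy/+ kidneys and 48.1, 39.7 and 57.1 in +/+ kidneys. It was 49.9 for Nr5a2, against 29.4 in +/+ kidneys, and 25.4 for a further probe set of Nr2c1, against 21.1. More of the dim probe sets of members lay the other way, with every Cy/+ array below every +/+ array. Among them were those of Esr1, Ppara and Ncoa2, and also another dim probe set of Nr2c1 and another of Nr5a2. None of these differences was tested in the main fit. The share of all dim probe sets on the arrays that lay either way was not computed.

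Control probe sets, which report RNA added in the laboratory and enter no comparison, were also brighter on every Cy/+ array, with a median fold of 1.83 for the hybridization controls and 3.82 for the poly-A controls. No member was tested for an array of its genotype lying far from the rest, because groups of 3 are too small for such a test.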

How the results depend on the processing

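Of the 23 called members, 13 kept direction and call in each of the 18 alternatives that gave them a value and 10 lost the call in at least 1, while 6 of the 11 uncalled members were called in the same direction in at least 1. The count of members higher, 10, became 6 under quantile normalization, median centring, the filter at the 60th percentile and the replicate block, and 6 to 10 when arrays were left out in turn. The count lower, 13, ranged from 10 to 19 and was 10 to 15 with arrays left out. With the replicate block it was 13. No called member changed sign. Without a filter the median of the general coregulators was 0.12, and without shared probe sets that of the lipid sensors was -0.87.

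Estimates that did not pass changed sign as follows. Ppargc1b was -0.029 with quantile normalization, -0.061 without Cy/+ replicate 3 and -0.045 without +/+ replicate 3, in a range of -0.061 to 0.30 over arrays left out. Esrrg was 0.21 with array weights, 0.25 with probe sets averaged, 0.20 without Cy/+ replicate 1 and 0.024 without +/+ replicate 3, in a range of -0.28 to 0.20. With probe sets averaged, Nr2f6 was -0.67 (adjusted p = 0.0018), Thra 0.35 (0.011), Thrb -0.70 (0.00723) and Ncor1 0.037. The cause was not tested.

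The median of all tested probe sets was 0.05 as reported, 0 after quantile normalization and -0.02 after median centring. Deviations of same-numbered arrays correlated at 0.15, -0.11 and -0.15, which gave no sign that the numbers pair the samples. Some arrays of different number correlated higher, at 0.24 for +/+ replicate 2 with Cy/+ replicate 3 and 0.20 for +/+ replicate 3 with Cy/+ replicate 2. With 3 arrays per genotype such weak correlations cannot exclude a pairing. Dim probe sets near the threshold limit what can be said of Ppara, Esr1 and Nr0b2.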
